A study of Mus musculus with 9 samples.

Results

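The Pax family encodes transcription factors that share a paired DNA-binding domain. Described here are 8 of its genes, *Pax1*, *Pax2*, *Pax3*, *Pax5*, *Pax6*, *Pax7*, *Pax8* and *Pax9*, in mouse ESCs with and without a de novo DNA methyltransferase. *Pax4* was not analysed here. The members were chosen by name, and their CpGs were taken from 1 kb on either side of the transcriptional start site (TSS), from the gene body and from 10 kb of flank on both sides. Where a CpG was read at least 3 times in each genotype, it was used, and the 8 loci held 10655 of the 13328402 CpGs of the part of the genome that all tables cover.

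Whole genome bisulfite sequencing (WGBS) of J1 ESCs, which are mouse ESCs of the strain 129S4/SvJae, compared WT, *Dnmt3a* KO (genotype *Dnmt3a*-/-) and *Dnmt3b* KO (genotype *Dnmt3b*-/-) cells. The KO lines had been derived earlier in J1, were used at passage numbers close to those of WT, and were grown like WT on gelatin in medium with serum and LIF. Bisulfite leaves methylated cytosines unconverted, and the methylation ratio of a CpG is the share of its reads left unconverted. The authors merged the 3 libraries of each genotype into 1 table, so that every value below is a pooled value without replicate error, and differences compare cell lines rather than replicates.

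In the embryo, Pax proteins direct the regional identity of tissues. *Pax1* and *Pax9* act in the sclerotome and the pharyngeal pouches, *Pax2*, *Pax5* and *Pax8* in the midbrain-hindbrain region, with roles also in kidney, B cells and thyroid, *Pax3* and *Pax7* in neural tube, neural crest and muscle progenitors, and *Pax6* in eye, forebrain and pancreas. Such regulators of development are mostly silent in ESCs, and their CpG-dense start sites typically lie in unmethylated regions covered by Polycomb repressive complexes. DNMT3A and DNMT3B add methyl groups to unmethylated CpGs, and DNMT1 copies existing methylation at replication.

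Depth was similar in all genotypes. The median was 22 reads per CpG in WT, 20 in the *Dnmt3a* KO and 21 in the *Dnmt3b* KO, and at the 8 loci the mean was 19.8 to 25.5 reads in WT, 17.1 to 24.5 in the *Dnmt3a* KO and 18.9 to 24.4 in the *Dnmt3b* KO. The genotypes could be read from missing reads. *Dnmt3a* KO ESCs had 0 reads at 12 consecutive CpGs in *Dnmt3a*, where the mean depth was 31.4 in WT and 16.8 in the *Dnmt3b* KO. The longest runs without reads in *Dnmt3a* were 6 CpGs in WT and 5 in the *Dnmt3b* KO, at other places. *Dnmt3b* KO ESCs had 0 reads at 30 consecutive CpGs in *Dnmt3b*, where the mean depth was 31.5 in WT and 26.4 in the *Dnmt3a* KO. The start sites of the pluripotency genes *Pou5f1* and *Sox2* were unmethylated in all genotypes, at 0.685% or less. Intervals given below are 95% intervals from read counts and cover counting error only.

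To see how the family as a whole was methylated, means were taken over the CpGs of all 8 loci. They were 64.3% in WT, 35.6% in the *Dnmt3a* KO and 57.7% in the *Dnmt3b* KO, whereas all CpGs of the shared part were at 82.4%, 50.3% and 75.5%. The TSS regions of 7 members were low in WT, from 1.28% at *Pax2* to 17.0% at *Pax5*, and *Pax8* stood apart with 56.1%. All 8 members had lower means in both KOs than in WT at the TSS, in the body and in both flanks. These are means over CpGs, and 2 of them did not hold beyond counting error by methylated reads in the *Dnmt3b* KO. In the TSS region of *Pax1* the difference was 1.85 points (-0.400 to 4.16), and in the upstream flank of *Pax9* it was -1.53 points (-4.24 to 1.18).

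Over the CpGs within 1 kb of a TSS, the mean was 11.5% in WT, 3.80% in the *Dnmt3a* KO and 7.87% in the *Dnmt3b* KO. By methylated reads this was a difference of -9.51 points in the *Dnmt3a* KO (interval -10.2 to -8.84) and of -5.07 points in the *Dnmt3b* KO (-5.82 to -4.32). A TSS region lower by more than 20 points in the *Dnmt3a* KO was found in 1 member, *Pax8*, whereas 40.9% of all 14080 protein-coding genes with enough CpGs had such a region. In *Dnmt3b* KO ESCs the counts were 0 of 8 members and 2.51% of all genes. By the mean over CpGs the other 7 members were at 17.0% or less in WT and could not fall by 20 points, so that these counts say nothing about their loss. By methylated reads *Pax5* was at 22.5% in WT, with a difference of -20.4 points (-22.5 to -18.3) in the *Dnmt3a* KO. The median share of the WT level kept in the *Dnmt3a* KO was 37.0% over the members and 37.0% over all genes, and in the *Dnmt3b* KO 64.8% and 77.2%. Genes with at least 80 CpGs in the window kept 26.2% in the *Dnmt3a* KO, less than the members, and 63.4% in the *Dnmt3b* KO. These CpG-dense genes, which include every member but *Pax8*, had a median of 5.02% in WT, 1.10% in the *Dnmt3a* KO and 3.00% in the *Dnmt3b* KO, and the median of the 8 members was higher in each, at 11.8%, 3.55% and 7.58%.

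The gene bodies, taken without the TSS region, had a median difference of -31.2 points in the *Dnmt3a* KO, beside -35.2 points over all genes. Over 8076 CpGs the mean was 69.0% in WT, 38.6% in the *Dnmt3a* KO and 62.4% in the *Dnmt3b* KO, a difference in methylated reads of -31.7 points (-32.0 to -31.4) and of -7.84 points (-8.13 to -7.55). The body was lower by more than 20 points in the *Dnmt3a* KO in 7 of 8 members, all but *Pax9*, and in 96.5% of all genes. These counts use means over CpGs, and by methylated reads *Pax9* was at -23.4 points (-24.9 to -21.8). No member (0 of 8) crossed this limit in the *Dnmt3b* KO, where 3.0% of all genes did.

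In WT, the upstream flanks of 7 members were under the median of all genes. The median over the members was 55.9% in WT, 21.8% in the *Dnmt3a* KO and 45.2% in the *Dnmt3b* KO, and over all genes it was 87.2%, 48.5% and 78.6%. *Pax2* was at 13.3% in WT, *Pax5*, *Pax3* and *Pax6* were at 44.8%, 46.8% and 49.3%, and *Pax9*, *Pax7*, *Pax1* and *Pax8* followed at 62.4%, 65.5%, 77.7% and 88.8%. The flank was lower by more than 20 points in the *Dnmt3a* KO in 7 of 8 members, all but *Pax2*, beside 94.9% of all genes. At 13.3% in WT, *Pax2* could not fall by 20 points, and it kept 39.9% of its WT level. Downstream flanks were closer to those of other genes, with medians of 92.9%, 58.4% and 85.3% over the members and 87.8%, 50.4% and 79.6% over all genes, and in the *Dnmt3a* KO all 8 members, beside 92.9% of all genes, were lower by more than 20 points. In *Dnmt3b* KO ESCs 0 members crossed this limit in a flank by the mean over CpGs, beside 0.68% of all genes upstream and 0.463% downstream. By methylated reads the upstream flank of *Pax3* did, at -20.6 points (-23.0 to -18.2).

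**Figure D1:**
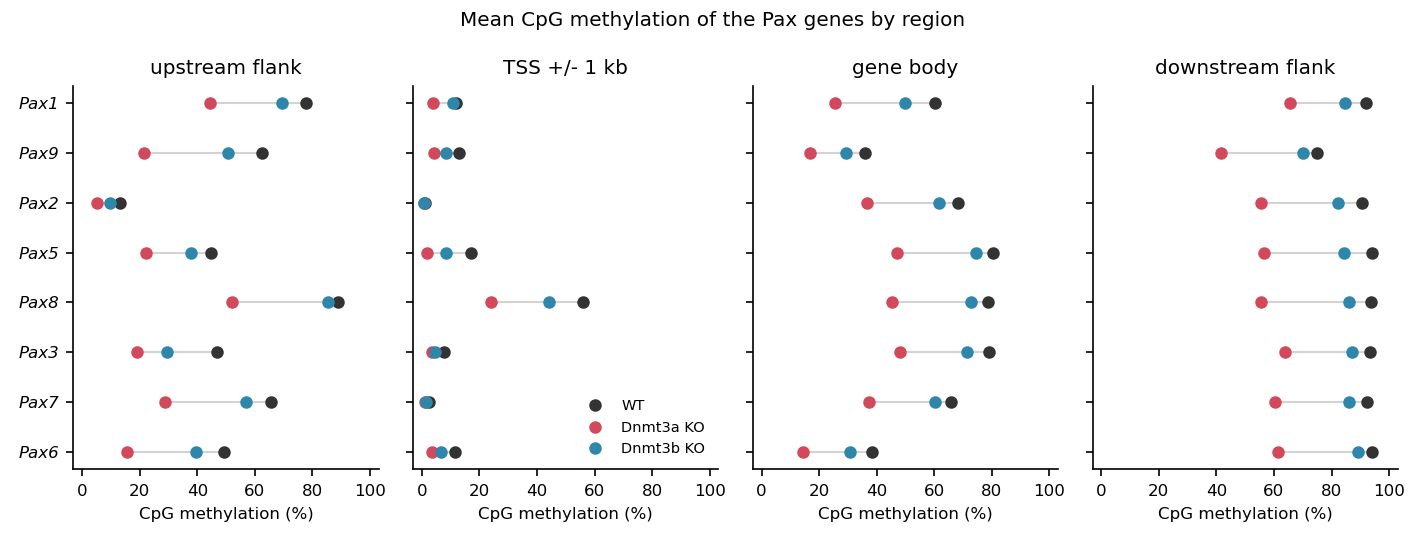
Mean CpG methylation (%, x axis) of the upstream flank, the TSS region, the gene body and the downstream flank of each Pax gene (y axis), with a point for each of WT ESCs and both KOs. The *Dnmt3a* KO points lie farthest left in every row, and in the TSS panel *Pax8* is the only gene to the right of 20%.

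Distal promoters, 500 to 3000 bp before the main TSS, were measured as well. At *Pax1*, whose first annotated start lies at -3069 bp from the main TSS, this window is part of the gene body. Over 469 CpGs the mean was 31.7% in WT, 9.45% in the *Dnmt3a* KO and 22.4% in the *Dnmt3b* KO. The members had a median of 33.6% in WT, far under the 84.1% of all genes and the 67.9% of genes with a CpG-dense TSS. In *Dnmt3a* KO ESCs 5 of 8 members were lower by more than 20 points, *Pax1*, *Pax9*, *Pax2*, *Pax8* and *Pax3*, beside 88.2% of all genes, and in the *Dnmt3b* KO 0 were, beside 4.04%. By methylated reads *Pax6*, at -20.04 points (-22.4 to -17.7), passed this limit in the *Dnmt3a* KO, and *Pax1*, at -15.6 points (-18.5 to -12.7), did not. Other than *Pax8*, the members started under the median of all genes here. *Pax5* was at 14.9% in WT, where a fall by 20 points is not possible, and *Pax6* and *Pax7* were at 23.3% and 23.5%. *Pax8* was at 90.4% in WT over 13 CpGs and kept 73.2% of that level in the *Dnmt3a* KO. The median share of the WT level kept in the *Dnmt3a* KO was 24.2% over the members, 51.4% over all genes and 44.0% over CpG-dense ones. *Pax3* had the largest difference in the *Dnmt3b* KO, from 59.1% to 39.6%, with 25.9% in the *Dnmt3a* KO.

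To describe how far low methylation reached, the stretch at each TSS in which the running mean over 5 CpGs stayed under 10% was measured. Where no stretch held the CpG nearest the TSS, the nearest stretch within 1 kb was taken, so that it need not cover the TSS. A single more methylated CpG can end such a stretch, so that its length is also given with low stretches less than 500 bp apart joined. The unbroken stretch was longer than in WT in 6 of 8 members in the *Dnmt3a* KO and in 6 of 8 in the *Dnmt3b* KO, beside 65.6% and 55.8% of all 14278 genes, and it was shorter in 2 members in each, beside 2.72% and 5.93%. The 2 shorter ones in the *Dnmt3a* KO, at *Pax1* and *Pax6*, were longer than in WT with at least 10 reads per CpG, at 1077 bp beside 737 bp and 2433 bp beside 924 bp, so that 0 members were then shorter. Those in the *Dnmt3b* KO, at *Pax1* and *Pax2*, were then longer too, at 794 bp beside 737 bp and 2519 bp beside 2488 bp, which left 0 shorter. The counts of 6 both include *Pax8*, whose unbroken stretch was 32 bp with 3 CpGs in the *Dnmt3a* KO and 2 bp with 1 CpG in the *Dnmt3b* KO. With a running mean over 3 CpGs 5 members were longer and 3 shorter in the *Dnmt3a* KO. In the *Dnmt3b* KO 3 were then longer and 5 shorter. Shares over all genes were not computed at this setting or with at least 10 reads. With joining, the stretch was longer in all 8 members in the *Dnmt3a* KO and in 7 in the *Dnmt3b* KO. The shares of all genes with a longer joined stretch were 68.1% and 58%. A shorter one was found in 0 members and 1 member, beside 0.231% and 3.33% of all genes. All other genes kept their joined length, so that among genes whose length changed nearly all were longer in the *Dnmt3a* KO. In the *Dnmt3b* KO the 7 again include the 1 CpG of *Pax8*. The median unbroken length was 930 bp in WT, 1088 bp in the *Dnmt3a* KO and 1232 bp in the *Dnmt3b* KO, and the median joined length was 1132.5 bp, 3297 bp and 1353.5 bp. The order of the unbroken medians of the KOs turned with at least 10 reads, at 830.5 bp, 1916.5 bp and 1183 bp, and with reads thinned to equal depth, at 825 bp, 1965 bp and 1216.5 bp. Over all genes the unbroken medians were 503 bp, 1041 bp and 695 bp, and the joined ones 650 bp, 1183.5 bp and 802 bp. Over the 5659 genes with a CpG-dense TSS the unbroken medians were 1208 bp, 1898 bp and 1469 bp, above those of the members at the same setting. Of these genes 5344 were longer than in WT in the *Dnmt3a* KO and 4912 in the *Dnmt3b* KO, and 303 and 557 were shorter.

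**Figure D2:**
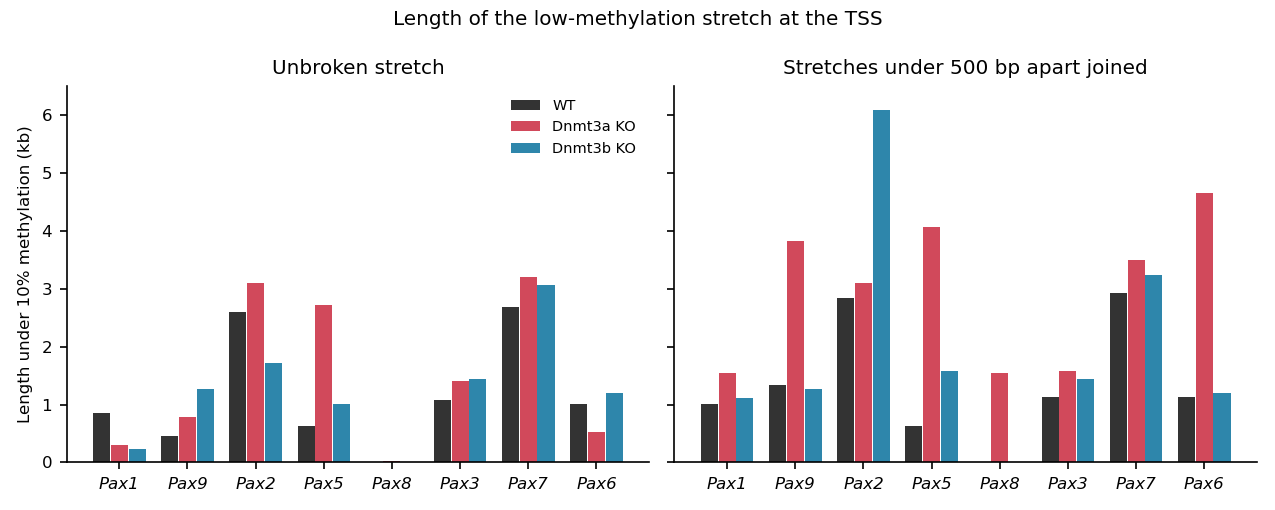
Length of the stretch under 10% methylation at the TSS (kb, y axis) of each Pax gene (x axis) in WT ESCs and both KOs, unbroken on the left and with stretches less than 500 bp apart joined on the right. After joining, the *Dnmt3a* KO bar is above the WT bar for all 8 genes, and the highest bar is that of *Pax2* in the *Dnmt3b* KO, at 6081 bp. Unbroken, that *Pax2* stretch was 1717 bp, beside 2597 bp in WT.

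*Pax1* (ENSMUSG00000037034.8) lies on the forward strand of chromosome 2 from 147187661 to 147219031 in mm9, and *Pax9* (ENSMUSG00000001497.11) on the forward strand of chromosome 12 from 57792754 to 57813809. In WT their bodies were at 60.3% and 35.9%, under the 88.5% median of all genes. The *Pax1* body was at 25.6% in the *Dnmt3a* KO and 49.7% in the *Dnmt3b* KO. The *Pax9* body was at 16.8% and 29.4%, and 170 of its 341 CpGs were already under 10% in WT. Introns of *Pax1* went from 73.4% to 31.4% in the *Dnmt3a* KO and its exons from 30.5% to 12.5%.

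The TSS region of *Pax1* was at 11.9% in WT, 3.87% in the *Dnmt3a* KO and 10.7% in the *Dnmt3b* KO. The order of WT and *Dnmt3b* KO depended on the weighting, since by methylated reads they stood at 12.2% (10.9 to 13.7) and 14.1% (12.4 to 15.9). The distal promoter of *Pax1* likewise had a lower mean in the *Dnmt3b* KO, 28.5% beside 36.7% in WT, but a higher share of methylated reads, 30.1% beside 25.5%. The unbroken stretch at *Pax1* was 851 bp in WT, 300 bp in the *Dnmt3a* KO and 226 bp in the *Dnmt3b* KO, and the joined stretch was 1015 bp, 1539 bp and 1118 bp. At the first annotated start the unbroken stretch was 2 bp, 459 bp and 940 bp, and the joined one 902 bp, 1860 bp and 940 bp. The longest low stretch of the locus in the *Dnmt3a* KO was another, of 2713 bp, that began 2373 bp downstream of the TSS and covered the most downstream annotated start of the gene, where 40 CpGs were at 21.6% in WT, 1.43% in the *Dnmt3a* KO and 11.2% in the *Dnmt3b* KO.

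At *Pax9* the TSS region was at 13.0% in WT, 4.31% in the *Dnmt3a* KO and 8.39% in the *Dnmt3b* KO. Within 500 bp of a start 3872 bp downstream, methylation in WT was 0.744%, beside 6.15% at the main TSS, and that start lay in a joined stretch of 3215 bp in WT, 4547 bp in the *Dnmt3a* KO and 3699 bp in the *Dnmt3b* KO. At the main TSS the joined stretch was 1331 bp, 3815 bp and 1262 bp. The upstream flank of *Pax9* was at 62.4% in WT, 21.5% in the *Dnmt3a* KO and 50.8% in the *Dnmt3b* KO. Its difference in the *Dnmt3a* KO was -40.9 points by the mean over CpGs, the largest of the upstream flanks, but -34.8 points by methylated reads, where *Pax7* was at -36.3 points. The noncoding transcript *Gm15524* overlaps the start of *Pax9* and the gene *Slc25a21* overlaps its end on the other strand, so that values there belong to both.

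*Pax2* (ENSMUSG00000004231.7) lies on the forward strand of chromosome 19 from 44830539 to 44912758, *Pax5* (ENSMUSG00000014030.9) on the reverse strand of chromosome 4 from 44544017 to 44724318, and *Pax8* (ENSMUSG00000026976.8) on the reverse strand of chromosome 2 from 24276071 to 24331119. They form a known subgroup, but their start sites differed widely. *Pax2* had 128 CpGs in the 2 kb around its TSS, *Pax5* had 91 and *Pax8* had 40, and the median of all genes was 65. Methylation in WT followed the reverse order, with 1.28%, 17.0% and 56.1%.

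The *Pax2* TSS region was at 1.28% in WT, 0.694% in the *Dnmt3a* KO and 0.910% in the *Dnmt3b* KO, and by the reads of the reverse strand alone it was 0.176 points higher in the *Dnmt3a* KO than in WT ESCs. Its upstream flank was the lowest of the family, at 13.3%, 5.32% and 9.84%. The unbroken stretch at the TSS was 2597 bp in WT, 3103 bp in the *Dnmt3a* KO and 1717 bp in the *Dnmt3b* KO. With joining it was 2847 bp, 3103 bp and 6081 bp. The joined stretch of the *Dnmt3b* KO took in a start 3869 bp downstream. Within 500 bp of that start the means were 6.16%, 2.63% and 2.88%. Low stretches of at least 5 CpGs at the locus summed to 8.56 kb in WT, 15.2 kb in the *Dnmt3a* KO and 11.9 kb in the *Dnmt3b* KO. The body, where introns hold most CpGs, was at 68.1%, 36.5% and 61.5%.

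The unbroken stretch at the *Pax5* TSS was 625 bp in WT, 2717 bp in the *Dnmt3a* KO and 1015 bp in the *Dnmt3b* KO, and with joining 625 bp, 4071 bp and 1581 bp. The WT stretch lay from -822 to -199 bp and did not cover the TSS, whereas those of both KOs did. In the *Dnmt3a* KO the unbroken stretch was 836 bp, beside 498 bp in WT, with a running mean over 3 CpGs, and 403 bp beside 367 bp with a threshold of 5%. That of the *Dnmt3b* KO was 187 bp and 529 bp at these settings, so that with 3 CpGs it was shorter than in WT. The TSS region was at 17.0%, 1.84% and 8.35%. Most *Pax5* transcripts, 12 of 16, start 761 bp further downstream, and the 47 CpGs within 500 bp of that start were at 40.7% in WT, 11.1% in the *Dnmt3a* KO and 26.1% in the *Dnmt3b* KO. A further low stretch, which holds 2 noncoding starts at 7440 and 8033 bp, began 6623 bp into the gene in WT, with joined lengths of 1655 bp, 2038 bp and 1700 bp. The body of *Pax5*, the longest of the family, was at 80.2%, 47.2% and 74.4%.

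*Pax8* was the only member without a low stretch within 1 kb of its TSS in WT at the settings used. With a running mean over 3 CpGs its stretch was 132 bp in WT, 32 bp in the *Dnmt3a* KO and 2 bp in the *Dnmt3b* KO, and with a threshold of 20% it was 922 bp, 2 bp and 70 bp. The stretch nearest the TSS was taken in each genotype, so that these lengths can belong to different stretches and do not show a shortening. In the *Dnmt3a* KO a longer stretch under 10%, of 1053 bp, lay farther downstream. The TSS region, with 40 CpGs, was at 56.1% in WT, 24.2% in the *Dnmt3a* KO and 44.1% in the *Dnmt3b* KO, and 2 of the 40 CpGs were under 10% in WT, 17 in the *Dnmt3a* KO and 10 in the *Dnmt3b* KO. A low stretch lay downstream of the TSS, from 1137 to 1831 bp (696 bp) in WT, from 952 to 2003 bp (1053 bp) in the *Dnmt3a* KO and from 1105 to 1571 bp (468 bp) in the *Dnmt3b* KO. With joining it began 468 bp downstream of the TSS in the *Dnmt3a* KO and was 1537 bp long. The noncoding gene *Gm13415* overlaps the start of *Pax8* on the other strand.

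The 200 bases before the TSS of *Pax8* are shown with those of *Pax3* because *Pax8* was the most methylated there in WT, whereas *Pax3*, like *Pax7*, was at 0%. Both are written 5′ to 3′ on the strand of the gene, with every CpG in capitals. The 6 CpGs before *Pax8* (mm9 chr2:24331120-24331319, reverse strand) were at 77.3% in WT, 20.2% in the *Dnmt3a* KO and 73.0% in the *Dnmt3b* KO, and the 10 CpGs before *Pax3* (mm9 chr1:78193710-78193909, reverse strand) were at 0% in all genotypes.
*Pax8* upstream: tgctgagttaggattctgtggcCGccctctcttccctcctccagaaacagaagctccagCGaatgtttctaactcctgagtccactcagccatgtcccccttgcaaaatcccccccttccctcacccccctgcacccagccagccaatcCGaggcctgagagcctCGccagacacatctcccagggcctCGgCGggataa
*Pax3* upstream: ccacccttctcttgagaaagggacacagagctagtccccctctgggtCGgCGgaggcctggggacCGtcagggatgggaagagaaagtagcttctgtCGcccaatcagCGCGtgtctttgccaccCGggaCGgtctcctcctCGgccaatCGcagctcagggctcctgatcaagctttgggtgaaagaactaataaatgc

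*Pax3* (ENSMUSG00000004872.9) lies on the reverse strand of chromosome 1 from 78097842 to 78193709, and *Pax7* (ENSMUSG00000028736.6) on the reverse strand of chromosome 4 from 139292977 to 139389445. The TSS region of *Pax3* was at 7.86% in WT, 3.57% in the *Dnmt3a* KO and 4.53% in the *Dnmt3b* KO. The stretch at the *Pax3* TSS was 1086 bp, 1400 bp and 1445 bp. Among the upstream flanks, that of *Pax3* had the largest difference in the *Dnmt3b* KO, from 46.8% in WT to 29.4%, with 19.1% in the *Dnmt3a* KO. By methylated reads this was -20.6 points (-23.0 to -18.2) for *Dnmt3b* KO and -29.9 points (-32.1 to -27.7) for *Dnmt3a* KO ESCs.

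At the *Pax7* TSS the unbroken stretch was 2676 bp in WT, 3206 bp in the *Dnmt3a* KO and 3071 bp in the *Dnmt3b* KO. With a threshold of 5% it was 1181 bp, 1137 bp and 1137 bp. Its TSS region was at 2.41%, 0.982% and 1.57%. A second low region lay in the gene, 8346 to 12572 bp downstream of the TSS in WT, where the joined stretch was 4228 bp, 4939 bp and 4236 bp. These 3 lengths exceed 3.5 kb, the size the study sets for canyons (long under-methylated regions), although its regions were called in another way. Low stretches at the locus summed to 7.17 kb in WT, 14.0 kb in the *Dnmt3a* KO and 8.84 kb in the *Dnmt3b* KO.

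*Pax6* (ENSMUSG00000027168.12), on the forward strand of chromosome 2 from 105509053 to 105543317, had the most start sites, 29 distinct ones among 33 transcripts. Its body was at 38.3% in WT, 14.3% in the *Dnmt3a* KO and 30.7% in the *Dnmt3b* KO, the lowest of the family in the *Dnmt3a* KO and the second lowest after *Pax9* in the other two, and the share of its CpGs under 10% was 42.8%, 70.5% and 49.3%. Low stretches summed to 6.79 kb in WT, 19.9 kb in the *Dnmt3a* KO and 9.98 kb in the *Dnmt3b* KO. The longest, over a cluster of 9 transcript starts 6213 bp downstream of the TSS, was 2224 bp, 5357 bp and 3419 bp unbroken and 3694 bp, 7656 bp and 3702 bp joined. Around a start 2964 bp downstream, 21 CpGs were at 65.3% in WT, 10.5% in the *Dnmt3a* KO and 55.1% in the *Dnmt3b* KO. At the first TSS the unbroken stretch was 1009 bp, 524 bp and 1202 bp and the joined one 1133 bp, 4654 bp and 1202 bp. The antisense transcript *Pax6os1* overlaps the start of *Pax6* and the gene *Elp4* overlaps its end.

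**Figure D3:**
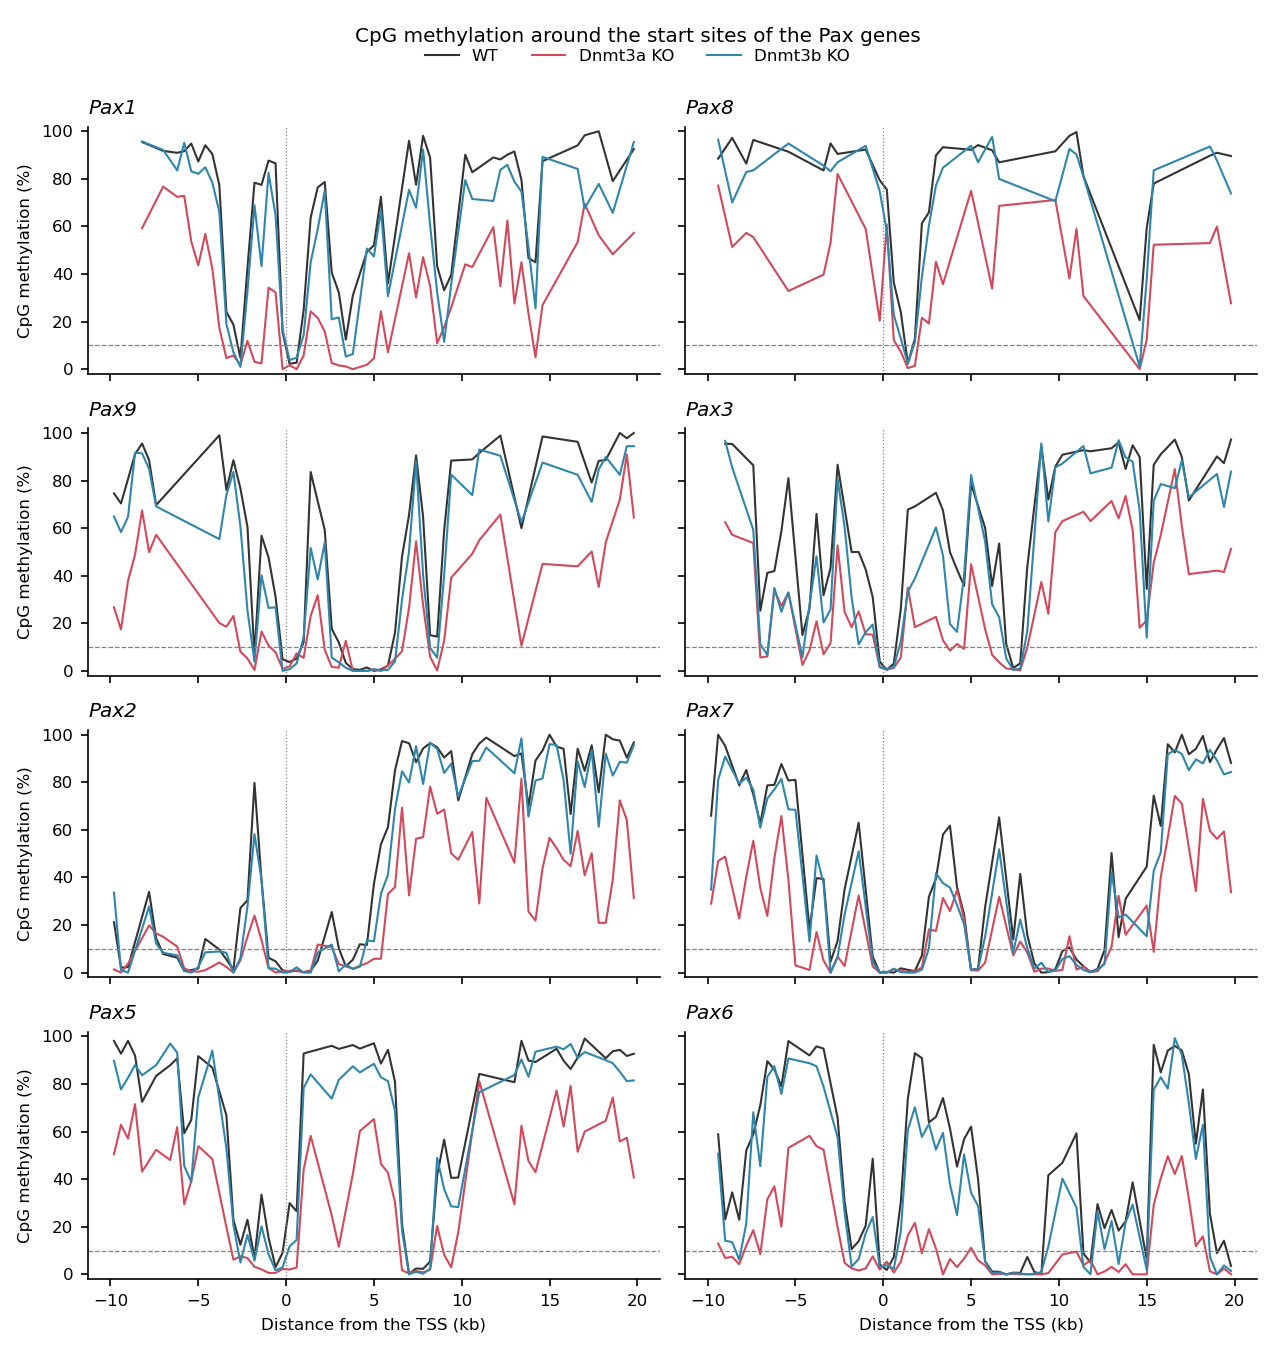
CpG methylation (%, y axis) by distance from the TSS (kb, x axis, the direction of transcription to the right) at the 8 Pax genes, as means over bins of 400 bp that hold at least 3 CpGs, joined by lines. The dashed line marks 10%, and between the low regions *Dnmt3a* KO (red) mostly runs under *Dnmt3b* KO (blue) and WT (black), as in the bin centred 3400 bp into *Pax6*, at 0%, 59.5% and 74.1%.

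To see where the loss lay relative to the low stretches, CpGs of the 7 members with a stretch in WT were grouped by distance from that stretch. Inside it the mean was 1.40% in WT, 0.807% in the *Dnmt3a* KO and 1.24% in the *Dnmt3b* KO. The WT level there was set by the definition of the stretch, and *Pax1* was the 1 gene with a higher value in a KO, at 2.49% in WT and 4.03% in the *Dnmt3b* KO. From 1 to 250 bp outside, the means were 16.3%, 4.31% and 6.85%. From 501 to 1000 bp they were 41.5%, 10.6% and 28.1%, and from 2001 to 5000 bp 35.0%, 10.4% and 26.4%. The stretch ends where the WT mean passes 10%, so that the WT level of the CpGs next to it was also set by its definition. *Pax3* had the largest *Dnmt3b* KO difference at 501 to 1000 bp, from 60.9% in WT to 29.9%, with 21.7% in the *Dnmt3a* KO.

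**Figure D4:**
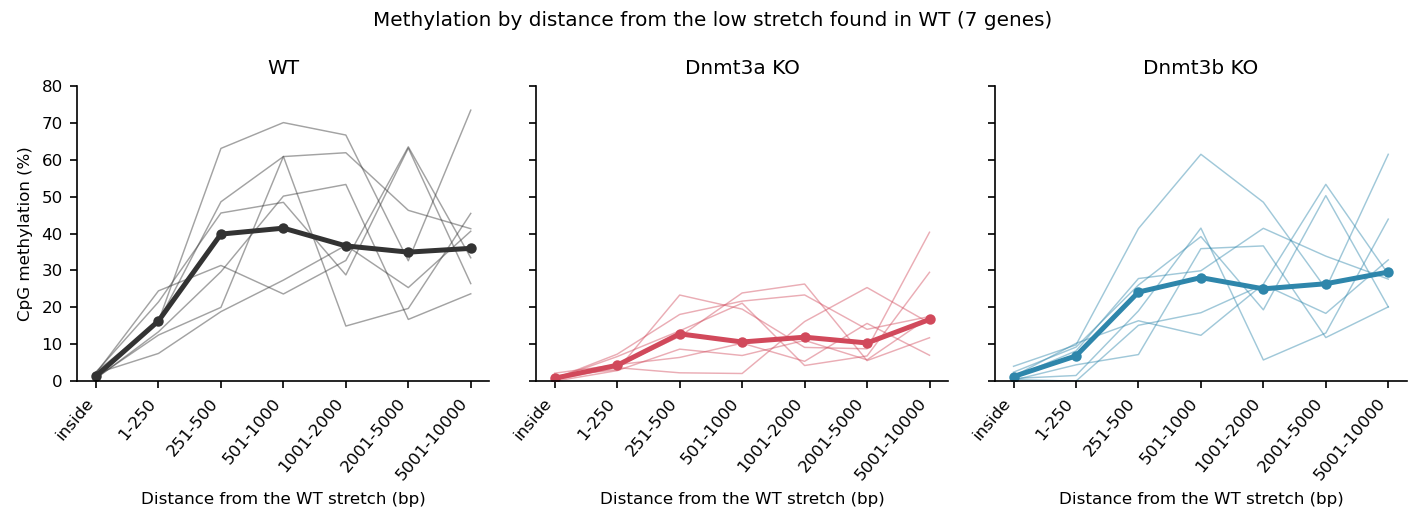
CpG methylation (%, y axis) by distance from the low stretch found at the TSS in WT (bp, x axis), in WT ESCs and both KOs. Thin lines are the 7 genes with a WT stretch and the thick line is the mean over their CpGs, which reaches 41.5% in WT, 28.1% in the *Dnmt3b* KO and 10.6% in the *Dnmt3a* KO at 501 to 1000 bp.

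Single CpGs were then called by the criterion of the study, a difference credibly beyond 0.2 in the methylation ratio. In *Dnmt3a* KO ESCs 2599 of 10716 CpGs of the loci were lower than in WT, which is 24.3% and close to the 25.6% of all CpGs tested. In *Dnmt3b* KO ESCs 231 of 10728 were lower, 2.15% beside 2.14% of all CpGs. In the direct comparison 1694 of 10733 were lower in the *Dnmt3a* KO than in the *Dnmt3b* KO, 15.8% beside 16.8%, and 8 were higher, beside 0.0566%. By region, 35 of 713 CpGs (4.91%) within 1 kb of the TSS were lower in the *Dnmt3a* KO, with 11 of 90 at *Pax5*, 62 of 469 in the distal promoters (13.2%) and 243 of 1188 in the upstream flanks (20.5%). In the bodies 2150 of 8120 were lower (26.5%) and in the downstream flanks 171 of 695 (24.6%). Distal promoters overlap the other regions, and shares by region over all genes were not computed. A CpG under 20% in WT cannot be called lower, so that these shares also follow the WT level. Among the loci, the share lower in the *Dnmt3a* KO ran from 17.6% at *Pax9* to 28.7% at *Pax5*.

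**Figure D5:**
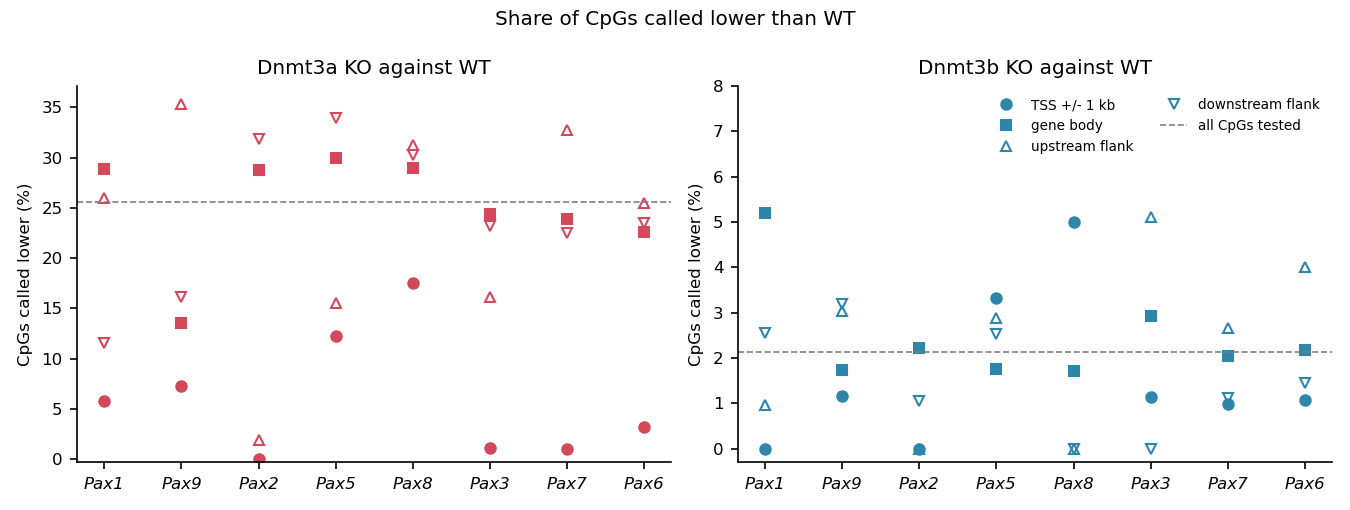
Share of CpGs called lower than in WT (%, y axis) at each Pax gene (x axis) in the *Dnmt3a* KO (left) and *Dnmt3b* KO ESCs (right, with a smaller scale), by region. The dashed lines mark the share over all CpGs tested, 25.6% and 2.14%, and the filled circles of the TSS regions lie under it for all 8 genes in the *Dnmt3a* KO, but CpGs under 20% in WT cannot be called lower.

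CpGs with higher methylation were few. In *Dnmt3a* KO ESCs there were 2, beside 0.00703% of all CpGs, both within *Pax7*, at 10554 and 13386 bp downstream of the TSS. At the first of these, methylated reads were 0 of 19 in WT, 6 of 11 in the *Dnmt3a* KO and 0 of 14 in the *Dnmt3b* KO, and at the second 2 of 19, 8 of 11 and 0 of 6. In *Dnmt3b* KO ESCs there were 9, beside 0.069% of all CpGs, at 6 of the 8 genes, and the CpG upstream of *Pax5* with 1 of 29 methylated reads in WT and 15 of 25 in the *Dnmt3b* KO had the most reads among those under 10% in WT. At that CpG all *Dnmt3b* KO reads came from the forward strand.

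Differentially methylated regions (DMRs) were runs of at least 4 consecutive covered CpGs called in the same direction, each within 300 bp of the one before. In *Dnmt3a* KO ESCs 139 DMRs with lower methylation reached into the 8 loci, with 37 at *Pax5*, 27 at *Pax2*, 24 at *Pax7*, 18 at *Pax6*, 13 at *Pax3*, 7 each at *Pax1* and *Pax8*, and 6 at *Pax9*. These are 1.30 DMRs per 100 CpGs tested, beside 1.06 in the shared part, which held 141965. Introns held 101 of the 139 without touching an exon, and 1, at *Pax5*, lay within 1 kb of the main TSS. With every annotated start of a gene counted, 10 of the 139 lay within 1 kb of one, 8 at *Pax6* and 2 at *Pax5*. Such counts also depend on how many CpGs each place holds and on their WT level. Shares by place over all DMRs of the shared part were not computed. The median length of the 139 DMRs was 211 bp. The median of their means was 92.3% in WT, 21.5% in the *Dnmt3a* KO and 76.5% in the *Dnmt3b* KO. The DMRs were picked by the same WT and *Dnmt3a* KO reads, so that the size of that difference follows in part from the selection. The longest, of 1025 bp and 17 CpGs in an intron of *Pax7* (chromosome 4, 139324036 to 139325060), was at 79.4%, 4.84% and 74.8%. Against *Dnmt3b* KO ESCs, 51 DMRs were lower in the *Dnmt3a* KO, 0.475 per 100 CpGs beside 0.427 in the shared part. DMRs higher than in WT numbered 0 at the loci in both KOs, and in the whole shared part they numbered 0 in the *Dnmt3a* KO and 3 in the *Dnmt3b* KO.

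In *Dnmt3b* KO ESCs 1 DMR with lower methylation was found, which is 0.00932 per 100 CpGs tested beside 0.00925 in the shared part, where there were 1246. With other covered CpGs allowed between called ones there were 8, or 0.0746 beside 0.0495 per 100 CpGs, and with 3 CpGs per DMR 4, or 0.0373 beside 0.0316. The DMR found with 4 CpGs spans 45 bp in a coding exon of *Pax2* (chromosome 19, 44865240 to 44865284). It was at 98.9% in WT, 31.9% in the *Dnmt3b* KO and 19.4% in the *Dnmt3a* KO. The WT and *Dnmt3b* KO values likewise come from the reads that picked this DMR. At its first CpG the methylated reads were 22 of 22 in WT, 14 of 34 in the *Dnmt3b* KO and 5 of 20 in the *Dnmt3a* KO, and at the third 21 of 22, 4 of 27 and 1 of 18. It lies inside the window of *Pax2* that held the most CpGs lower in the *Dnmt3a* KO.

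To show the sequence where CpGs called lower in *Dnmt3a* KO ESCs were densest, the window of 200 bases with the most such CpGs, outside untranslated regions, was taken from each locus. Windows were ranked by this number and not by the size of the loss. The calls used the same reads as the levels given below, so that low *Dnmt3a* KO levels follow in part from the choice. Of these, 4 are printed, 1 per subgroup, chosen after their values were seen. All are on the forward strand of mm9, and capitals mark the CpGs called lower in the *Dnmt3a* KO. The *Pax9* window (chr12:57801606-57801805, intron) was at 66.9% in WT, 3.22% in the *Dnmt3a* KO and 38.5% in the *Dnmt3b* KO, and the *Pax2* window (chr19:44865166-44865365, coding exon and intron) at 89.4%, 13.7% and 45.7%. The *Pax7* window (chr4:139344633-139344832, intron) was at 94.8%, 13.7% and 73.5%, and the *Pax6* window (chr2:105501756-105501955, upstream flank, in an intron of *Pax6os1*) at 82.6%, 10.3% and 61.2%.
*Pax9* window: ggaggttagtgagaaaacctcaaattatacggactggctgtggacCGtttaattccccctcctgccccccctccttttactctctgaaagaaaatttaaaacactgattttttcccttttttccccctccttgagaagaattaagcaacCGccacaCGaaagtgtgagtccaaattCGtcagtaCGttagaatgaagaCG
*Pax2* window: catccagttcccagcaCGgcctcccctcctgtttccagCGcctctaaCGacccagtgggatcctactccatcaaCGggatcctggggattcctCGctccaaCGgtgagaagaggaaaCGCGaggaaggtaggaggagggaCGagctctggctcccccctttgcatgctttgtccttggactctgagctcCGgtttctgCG
*Pax7* window: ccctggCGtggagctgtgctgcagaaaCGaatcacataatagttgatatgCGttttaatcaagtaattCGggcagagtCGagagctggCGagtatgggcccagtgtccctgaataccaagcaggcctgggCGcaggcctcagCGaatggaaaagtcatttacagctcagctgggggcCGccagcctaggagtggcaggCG
*Pax6* window: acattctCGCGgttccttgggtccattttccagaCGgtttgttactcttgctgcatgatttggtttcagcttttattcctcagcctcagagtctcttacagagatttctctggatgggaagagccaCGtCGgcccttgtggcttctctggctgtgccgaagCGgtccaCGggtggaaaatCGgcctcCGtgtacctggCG

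The capitals mark 6 of the 7 CpGs in the *Pax9* window, all 11 in that of *Pax2*, all 10 in that of *Pax7* and 10 of the 11 in that of *Pax6*. The corresponding windows of *Pax1*, *Pax3*, *Pax5* and *Pax8*, not printed, were at 95.2%, 67.3%, 76.1% and 92.2% in WT, 33.6%, 12.1%, 1.36% and 29.5% in the *Dnmt3a* KO and 69.6%, 38.3%, 62.7% and 83.5% in the *Dnmt3b* KO.

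At CpGs grouped by their WT level, and read at least 10 times in each genotype, the loci were compared with the shared part. The 5065 CpGs of the loci at 80% or more in WT were at 56.3% in the *Dnmt3a* KO and 86.6% in the *Dnmt3b* KO, and those of the shared part were at 58.5% and 86.2%. The 1586 CpGs of the loci from 20% to under 80% in WT were at 55.5% in WT, 22.2% in the *Dnmt3a* KO and 47.0% in the *Dnmt3b* KO, beside 64.6%, 36.0% and 62.9% in the shared part, and 44.6% of them were under 10% in the *Dnmt3a* KO, beside 23.4%. CpGs are not independent of each other, and the classes were set by the WT reads. No test was made of these differences.

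Other regulators of the same developmental network, which include *Eya1* to *Eya4*, *Meox1*, *Meox2*, *Myf5*, *Myf6*, *Dach1*, *Foxc1*, *Gata3*, *Wt1*, *Ebf1* and *Lbx1*, were taken as a list of 20, of which 19 lay in the shared part and *Foxc2* was not analysed here. Their TSS regions had a median of 6.39% in WT, 1.67% in the *Dnmt3a* KO and 3.72% in the *Dnmt3b* KO. Of the 19, 5 had a TSS region lower by more than 20 points in the *Dnmt3a* KO and 0 in the *Dnmt3b* KO, beside 40.9% and 2.51% of all genes, and the 5 were *Eya2*, *Myf5*, *Myf6*, *Meox1* and *Meox2*. The others were at 15.9% or less in WT and could not fall by 20 points. The unbroken stretch was longer than in WT in 15 of 19 in the *Dnmt3a* KO and in 12 of 19 in the *Dnmt3b* KO, beside the same 65.6% and 55.8% of all genes. Their distal promoters had a median of 73.2% in WT, 20.2% in the *Dnmt3a* KO and 61.3% in the *Dnmt3b* KO, so that in WT they were higher than those of the Pax genes.

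By Euclidean distance over 12 values, the means of the TSS region, body and both flanks in the 3 genotypes, the gene most like the median of the family was *Mrm1*, at a distance of 9.17, followed by *Caskin1* at 17.9. The TSS region of *Mrm1* was at 8.13% in WT, 2.51% in the *Dnmt3a* KO and 4.26% in the *Dnmt3b* KO, and its body at 67.1%, 36.2% and 56.8%.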

How the data were processed

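The authors merged the WGBS libraries of J1 ESCs, 3 for WT and 3 for either KO, into 1 table per genotype. The authors aligned reads to mm9 with BSMAP, removed biased positions with BSeQC and called CpG methylation with MOABS, whose versions are not given in the sources used here. The deposited tables give read counts per CpG (total and methylated, by strand) and their ratio as a fraction. The WT table ended on chromosome 4 at position 140865857, with 1 incomplete line left out, so that only 13 whole chromosomes and this part of chromosome 4 were used in all genotypes.

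Values were computed with NumPy 2.4.6, pandas 2.3.3 and SciPy 1.17.1 under Python 3.11.15. CpGs needed at least 3 reads in every genotype, and their ratios were averaged. Genes followed the mm9 annotation in GENCODE vM1, with the TSS of the protein-coding transcript that spans most. Stretches used a running mean over 5 CpGs under 10% and ended at gaps of over 1000 bp between CpGs. A CpG was called where the 95% credible interval of the difference between Beta posteriors lay beyond 0.2, with at least 3 reads in both genotypes and counts over 200 reads scaled to 200. DMRs needed 4 such consecutive CpGs, each within 300 bp of the one before. Read intervals are 95% Wilson or Newcombe intervals. The calls were also run on simulated data over 531214 CpGs of chromosome 19. Drops of 50 points over 12 CpGs gave a DMR in 66% of blocks, drops of 30 points in 0%, and drops of 85 points in 100%. Blocks were planted only in parts highly methylated in WT, and the simulated reads held counting error only. These rates need not hold at the Pax loci, whose mean in WT was 64.3%.

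All 8 members were named, with overlapping genes and genes outside the family near to it in 12 region means, of which some are not reported here. Members, lists and tests were chosen with earlier results of these data known. Sequences were read from the mm9 reference genome.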

Additional observations from a re-analysis of the deposited data

How the results depend on the processing

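No paired analysis was possible because each deposited table merges the 3 libraries of a genotype, and for the same reason no replicate could be left out. Of 336 differences of a member's TSS region, body or flanks from WT under other settings, 331 had the sign reported above and 5 did not. These were the TSS regions of *Pax2* in the *Dnmt3a* KO on the reverse strand (0.176 points) and, in the *Dnmt3b* KO, of *Pax1* by methylated reads (1.85) and within 500 bp (0.819), and of *Pax9* (0.346) and *Pax7* (0.992) on the forward strand. Distal promoters were not among these, and by methylated reads that of *Pax1* turned in the *Dnmt3b* KO, from -8.16 to 4.60 points (1.11 to 8.08). The family means of the TSS region, body and flanks kept their sign throughout. The TSS difference of -7.75 points in the *Dnmt3a* KO became -8.75 with at least 10 reads, -9.51 by methylated reads, -8.74 on the reverse strand, -5.36 within 500 bp and -13.4 within 2 kb, and that of -3.68 in the *Dnmt3b* KO became -4.75, -5.07, -5.00, -2.35 and -6.14. The body difference of -30.4 points in the *Dnmt3a* KO became -31.4 with at least 10 reads, -31.7 by methylated reads, -31.6 on the forward strand and -29.0 over the whole body, and that in the *Dnmt3b* KO -7.84 by methylated reads. Over both flanks the difference of -29.9 points in the *Dnmt3a* KO became -32.9 on the reverse strand, -29.1 with 5 kb and -31.5 with 20 kb, and that of -8.32 in the *Dnmt3b* KO became -7.67 with at least 10 reads and -9.27 on the reverse strand.

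The stretch lengths, single-CpG calls and DMR counts all depended on the settings. In *Dnmt3b* KO ESCs 3 members had a longer stretch with a running mean over 3 CpGs and 3 with a threshold of 5%, in place of 6, and 5 and 4 had a shorter one. In the *Dnmt3a* KO 5 were longer and 3 shorter under either setting. Among the other settings, shares over all genes were computed for joining only. The threshold of 5% gave medians of 491.5 bp in WT, 587.5 bp in the *Dnmt3a* KO and 666 bp in the *Dnmt3b* KO. The *Dnmt3a* KO median of 1088 bp became 2176 bp with a mean over 9 CpGs, 2402 bp with a threshold of 20%, 3297 bp with joining, 1916.5 bp with at least 10 reads and 1965 bp at equal depth. With a mean over 3 CpGs the medians were 660 bp, 837 bp and 854 bp, and at equal depth 1 member was shorter in the *Dnmt3a* KO. With a 99% credible interval, CpGs lower than in WT numbered 1729 in the *Dnmt3a* KO and 113 in the *Dnmt3b* KO and those higher 0 and 3, and between the KOs 1055 were lower and 2 higher in the *Dnmt3a* KO. Over all CpGs tested these were 16.8%, 1.01%, 0.00118%, 0.0154%, 10.1% and 0.015%, and at the loci 16.1%, 1.05%, 0%, 0.0280%, 9.83% and 0.0186%. By Fisher's exact test with Benjamini-Hochberg adjustment these counts were 4745, 392, 25, 26, 3303 and 52 (44.3%, 3.65%, 0.233%, 0.242%, 30.8% and 0.484%). Over all CpGs the shares by that test were 48.7%, 3.83%, 0.0772%, 0.211%, 33.5% and 0.297%. Of the 9 CpGs higher in the *Dnmt3b* KO in the calls reported above, 4 had at least 10 reads there and in WT. No share over all CpGs was computed for this count. With other CpGs allowed between called ones, DMRs lower than in WT numbered 226 in the *Dnmt3a* KO and 8 in the *Dnmt3b* KO, and 140 between the KOs, beside 233842, 6670 and 137021 in the shared part. With 3 CpGs per DMR they numbered 257, 4 and 114, beside 281008, 4251 and 137038. All values rest on pooled reads of 1 line per genotype, so that differences between lines of the same genotype could not be told apart from those between genotypes.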
